A study of Mus musculus with 20 samples.

Results

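The comparison sets regulatory T (Treg) cells stimulated under GGTI for 48 h against freshly sorted Treg cells, on 6 of the 20 arrays of the series and over all 21928 genes measured. GGTI_48h (3 arrays) holds cells that had 2 h of GGTI and were then activated for 48 h, with GGTI still present, by interleukin-2 (200 U/ml) together with anti-CD3 and anti-CD28 (10 ug/ml). DMSO_0h (3 arrays) holds the fresh cells, for which the labels name DMSO at 0 h and no stimulation. DMSO_48h (3 arrays), activated in the same way for 48 h without an inhibitor, is given beside them and shares the DMSO_0h arrays as its baseline. All cells were CD4+ YFP+ CD44lo CD62Lhi cells, called cTreg in the labels, from the spleen and the pLN of C57BL/6J animals with Foxp3YFP-Cre, so the controls carry the same Foxp3 allele. Neither the compound nor the dose behind the name GGTI is given in the sources used here. No group was kept for 48 h without stimulation, so the effects of culture, interleukin-2 and the antibodies cannot be told apart. The labels do not say whether the arrays of a group came from separate mice, so p-values measure the spread among arrays only. That spread was estimated within groups, pooled over all 7 groups of the series, and may be technical. In these bulk samples, fewer cells of a type and less RNA per cell cannot be told apart.

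Treg cells restrain immune responses and depend on the transcription factor Foxp3. Prenylation attaches a farnesyl or a geranylgeranyl lipid, both made by the mevalonate pathway, to proteins such as small GTPases, and anchors them in membranes. Geranylgeranyl transferase inhibitors block the second of these attachments. When a resting T cell is stimulated through its receptor it switches on immediate early genes within minutes, then grows by making ribosomes and taking up nutrients, and later replicates its DNA and divides, while genes of the resting state such as Klf2 and S1pr1 are switched off.

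Values are log2 expression levels, so a difference of 1 is a doubling. A gene was called changed where limma's moderated test, adjusted over all 21928 genes, gave an adjusted p under 0.05. It is described as near the fresh level where the 95% interval of its difference lay wholly between -0.5 and 0.5. A level at or below the average negative-control level of its group (5.28 in GGTI_48h, 5.18 in DMSO_48h and 5.64 in DMSO_0h) is called at background, and the size of a difference that starts or ends there is limited by background.

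Foxp3, which defines Treg cells, and Cd4 were well above background on all GGTI_48h and DMSO_0h arrays, while Il2ra, which encodes the Treg surface marker CD25, was not detected above background in the fresh cells. Foxp3 stood at 11.08, 10.93 and 11.09 on the GGTI_48h arrays, 10.80, 10.77 and 10.87 on the DMSO_48h arrays and 10.96, 10.81 and 10.88 on the DMSO_0h arrays. GGTI_48h and DMSO_0h overlapped, and the difference of 0.15 (95% interval -0.02 to 0.31) was not called (adjusted p = 0.144), although Foxp3 was called higher when the arrays were centred on the median of all probe sets (0.27, adjusted p = 0.0101) and under trended, robust variances (adjusted p = 0.0366). Cd4 stood at 9.68 to 9.83 in GGTI_48h and 9.79 to 9.92 in DMSO_0h. Il2ra, the alpha chain that gives the interleukin-2 receptor its high affinity, was at background in the fresh cells (4.86 to 5.30) and at 7.60 to 7.71 in GGTI_48h. The myeloid gene Lyz2 was at background in both groups. It does not stand for all markers of other cells. By their mean in fresh cells, 9 of 14 myeloid and dendritic cell genes and 2 of 8 red cell genes were at background, and the rest were above it.

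GGTI_48h cells differed from fresh cells at many genes, though at fewer than DMSO_48h cells did. Both comparisons share the fresh arrays, and their counts do not show that the same genes changed. Of 21928 genes, 10360 were called between GGTI_48h and DMSO_0h (47.2%), 4563 of them higher (20.8%) and 5797 lower (26.4%). At least 2-fold differences were called for 1434 genes above and 432 below the fresh level, together 8.51% of all genes. The DMSO_48h cells differed from the same fresh arrays at 11599 genes (52.9%), 4940 higher (22.5%) and 6659 lower (30.4%), and at least 2-fold at 12.1%. The interval lay inside -0.5 to 0.5 for 9117 genes (41.6%) in GGTI_48h and for 37.7% of genes in DMSO_48h.

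Most of the calls below the fresh level were small. The difference of the median gene was -0.12. Genes at background in the fresh cells made up 1631 of the 5797 lower calls (28.1%) and 607 of the 4563 higher calls (13.3%), against 9006 of all 21928 genes (41.1%). When all arrays were centred on the median of all probe sets the median gene moved to 0.002, and 5407 genes were called higher and 3318 lower. With dim probe sets left out, 4506 of 12462 genes were higher and 3972 lower, and the median gene was at -0.015. The average negative-control level was itself lower in GGTI_48h (5.28) than in DMSO_0h (5.64). Its part in the lower calls of dim genes was not tested. Small differences of either sign are therefore read here against the median gene. The background for the lists below is the median of all genes, -0.12, or -0.015 without dim probe sets. The shares of all genes called, 20.8% higher and 26.4% lower, serve in the same way.

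**Figure D1:**
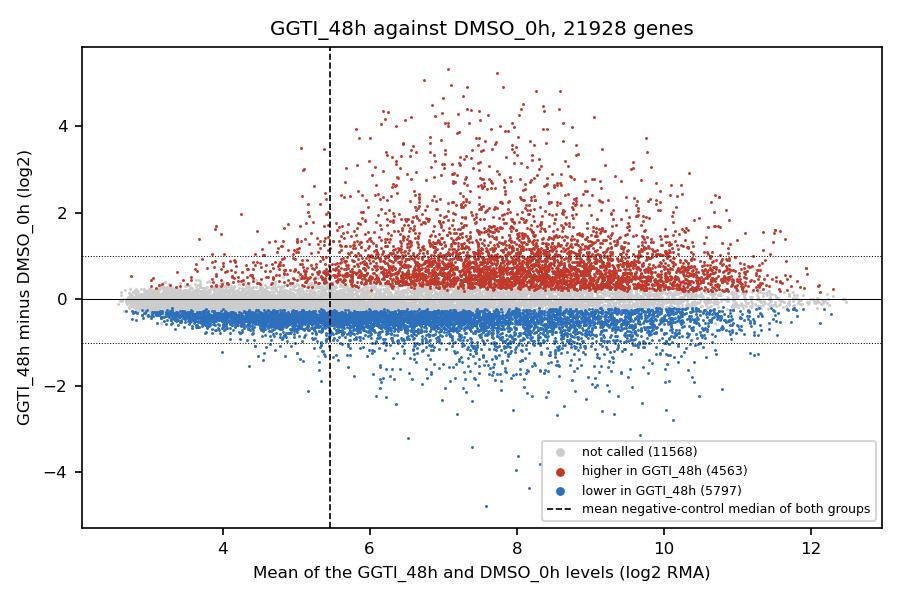
Difference GGTI_48h minus DMSO_0h (vertical axis, log2) against the mean of both groups' levels (horizontal axis, log2 RMA) for 21928 genes. Points are coloured by their call (4563 higher, 5797 lower), dotted lines mark 2-fold differences and the dashed line the negative controls. Differences above 2-fold reach further upward than downward, while lower calls crowd close to 0.

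Measured as the root mean square distance over all genes, the GGTI_48h arrays lay 0.619 to 0.741 from the fresh arrays (median 0.679). The DMSO_48h arrays lay 0.722 to 0.814 from them (median 0.757), and GGTI_48h and DMSO_48h arrays lay 0.421 to 0.451 apart. Arrays of 1 group lay 0.211 to 0.223 apart in GGTI_48h and 0.262 to 0.309 apart in DMSO_0h. In the direct test of GGTI_48h against DMSO_48h, 4750 genes were called (21.7%), 2206 higher (10.1%) and 2544 lower (11.6%). Set against both groups, 981 genes lay above fresh and DMSO_48h cells alike (4.47%) and 469 lay below both (2.14%). A further 1171 were above fresh cells but below DMSO_48h (5.34%), and 546 were below fresh cells but above DMSO_48h (2.49%).

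The cell division programme stood far above the fresh level. All 35 mitosis genes were higher in GGTI_48h than in DMSO_0h, each by at least 2-fold, with a median difference of 3.67, against 3.48 for the same genes in DMSO_48h. Cdk1, the kinase that drives entry into mitosis, stood at 10.33, 10.49 and 10.26 in GGTI_48h, 10.42, 10.52 and 10.47 in DMSO_48h, and 4.64, 5.83 and 4.87 in DMSO_0h. No GGTI_48h array overlapped the fresh arrays, and the difference was 5.24 ± 0.21 (SE, adjusted p = 8.04e-14), with the fresh level at background.

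Ccnb2, a mitotic cyclin, was measured well above background in the fresh cells. It stood at 10.82, 10.80 and 10.71 in GGTI_48h, 10.24, 10.39 and 10.31 in DMSO_48h, and 7.97, 7.90 and 7.86 in DMSO_0h. All 3 groups were separate, and Ccnb2 was 7.27-fold above the fresh level (2.86 ± 0.09, adjusted p = 6.96e-15) and also above DMSO_48h (0.46 ± 0.09, adjusted p = 0.00109). The proliferation marker Mki67 stood at 11.62 to 11.63 in GGTI_48h, 11.37 to 11.40 in DMSO_48h and 7.53 to 8.28 in DMSO_0h, a 13.2-fold difference from fresh cells. Aurkb, a kinase of chromosome segregation, was 22.1-fold higher. Kif15, a spindle motor, and Bub1, a spindle checkpoint kinase, differed by 5.33 and 5.06, with fresh levels at background. The 12 largest differences of all also held E2f8, Sgo1, Pbk, Kif2c, Mastl and Depdc1a, at 4.50 to 4.92, against 4.14 to 4.80 in DMSO_48h. All of these but Pbk were at background in the fresh cells, so the sizes of their differences rest on a dim baseline. In the direct comparison 6 of the 35 mitosis genes were higher in GGTI_48h than in DMSO_48h and none lower.

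DNA replication genes gave a similar picture. Of 35, 34 were higher in GGTI_48h than in fresh cells and none was lower, with a median of 2.21, against 2.16 in DMSO_48h. Rrm2, the regulated subunit of ribonucleotide reductase, stood at 9.74, 9.84 and 9.61 in GGTI_48h, 9.59, 9.68 and 9.77 in DMSO_48h, and 6.05, 6.11 and 6.28 in DMSO_0h. The inhibitor and DMSO arrays at 48 h overlapped and both were separate from the fresh ones. Mcm5, part of the replicative helicase, was 4.81-fold higher. The 1 exception was Tk1, a thymidine kinase, whose difference of 0.20 (95% interval -0.05 to 0.44) was not called, but was without DMSO_0h replicate 1 (0.31, adjusted p = 0.0474) and after centring on all probe sets (0.32, adjusted p = 0.0329).

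Among 25 cyclin and cyclin kinase inhibitor genes 17 were higher and 4 lower. Ccne1, the G1/S cyclin, was 4.20-fold and Ccnd2, a G1 cyclin, 2.47-fold above the fresh level. Cdkn1b, which encodes the inhibitor p27, was at 9.27, 9.17 and 9.24 in GGTI_48h, 8.42, 8.20 and 8.24 in DMSO_48h, and 9.93, 10.27 and 9.93 in DMSO_0h. Its 3 groups did not overlap, and GGTI_48h cells, while lower than fresh cells (-0.82 ± 0.12, adjusted p = 9.7e-06), lay above DMSO_48h cells (0.94 ± 0.12, adjusted p = 4.67e-06). Cdkn1a, encoding p21, was higher than in fresh cells by 1.44 and lower than in DMSO_48h (-0.72, adjusted p = 0.0158).

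Promoters of mitosis genes are known to carry CCAAT boxes and a cell cycle homology region, whose core is written TTTGAA. The RefSeq promoters of Cdk1 and Ccnb2, both read above, and of the sterol synthesis gene Hmgcs1, described next, are shown for these motifs (build GRCm38.p6, 250 bases before to 50 after the start, 5′ to 3′ along the gene's strand). Capitals mark CCAAT, or ATTGG where it lies on the other strand, in Cdk1 and Ccnb2 also TTTGAA, and in Hmgcs1 also TCACNCCAC, a form of the sterol regulatory element. Cdk1 lies at chr10:69352863-69353162 on the minus strand, Ccnb2 at chr9:70421505-70421804 on the minus strand and Hmgcs1 at chr13:119690101-119690400 on the plus strand.
Cdk1: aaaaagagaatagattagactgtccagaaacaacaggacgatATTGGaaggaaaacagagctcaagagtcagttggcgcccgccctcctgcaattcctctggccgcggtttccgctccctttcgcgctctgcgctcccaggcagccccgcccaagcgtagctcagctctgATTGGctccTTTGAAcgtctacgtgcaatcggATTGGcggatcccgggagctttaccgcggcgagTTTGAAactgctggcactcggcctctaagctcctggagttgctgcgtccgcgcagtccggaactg
Ccnb2: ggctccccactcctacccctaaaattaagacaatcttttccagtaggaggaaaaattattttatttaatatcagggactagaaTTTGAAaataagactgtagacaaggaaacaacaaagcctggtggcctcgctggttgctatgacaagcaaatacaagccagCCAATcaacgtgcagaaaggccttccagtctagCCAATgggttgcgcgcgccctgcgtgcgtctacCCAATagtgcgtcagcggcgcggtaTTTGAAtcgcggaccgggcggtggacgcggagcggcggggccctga
Hmgcs1: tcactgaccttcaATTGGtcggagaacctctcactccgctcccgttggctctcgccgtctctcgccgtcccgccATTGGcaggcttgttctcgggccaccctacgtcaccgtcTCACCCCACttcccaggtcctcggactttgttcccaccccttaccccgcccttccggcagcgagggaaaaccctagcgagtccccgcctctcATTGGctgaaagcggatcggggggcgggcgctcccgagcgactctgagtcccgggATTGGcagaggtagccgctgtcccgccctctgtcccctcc
The Cdk1 and Ccnb2 promoters each held 3 CCAAT and 2 TTTGAA matches, and the Hmgcs1 promoter held 4 CCAAT matches and 1 TCACNCCAC match.

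Both strands were searched for the CCAAT box, for the TTTGAA core, for the sterol regulatory element TCACNCCAC and for the cAMP response element TGACGTCA. Promoters were found for 29 of the 35 mitosis genes, and 19 of these genes (65.5%) held both CCAAT and TTTGAA, against 7.97% of all 27025 genes with a promoter. Among 29 DNA replication genes with a promoter 3 held both (10.3%), and 19 held CCAAT (65.5%), against 41.1% of all genes. Of 18 sterol synthesis genes with a promoter 16 held CCAAT (88.9%) and 1, Hmgcs1, held TCACNCCAC (5.56%), which 1.44% of all genes hold. Ribosome biogenesis genes held CCAAT in 9 of 25 cases (36.0%). These matches describe letters in a window of 300 bases and were not tested as sites.

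Because GGTI_48h and DMSO_48h share the fresh arrays as baseline, the change from fresh cells was also read from genes chosen on other arrays. The DMSO_48h and DMSO_18h arrays differed at 3370 genes (15.4%), and 273 of these were at least 2-fold higher at 48 h. Of the 273 late-rising genes, 216 were above the fresh level in GGTI_48h (79.1%, against 20.8% of all genes), 13 were below it (4.76%) and 16 were near it. Their median difference was 2.09, against -0.12 over all genes. In DMSO_48h, whose arrays helped to choose them, it was 2.40. Relative to the average fresh level the median of the set was 1.94 to 2.15 on the GGTI_48h arrays, 0.89 to 1.02 on the GGTI_18h arrays and 2.37 to 2.44 on the DMSO_48h arrays, with no overlap between these groups. Without members of the mitosis, replication and cyclin lists, 183 of 240 were higher (76.2%), with a median of 1.77. Division genes that are not on those lists were not removed, so the 240 genes are not free of cell division. Of 31 genes that fell at least 2-fold between the same arrays, 17 were lower than in fresh cells (54.8%) and 12 higher (38.7%), with a median of -0.67, against -1.51 in DMSO_48h, and this median moves with the processing.

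A few late-rising genes lay under the fresh level. Trps1, a GATA-type repressor, was at 6.47, 6.75 and 6.72 in GGTI_48h, 8.13, 8.48 and 8.21 in DMSO_48h, and 8.34, 8.32 and 8.36 in DMSO_0h. The GGTI_48h arrays were lowest, with a difference of -1.69 ± 0.12 from fresh cells (adjusted p = 5.26e-10). Ctla2a and the phosphatase gene Ptpn5 followed, at -1.36 and -1.09.

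Many lipid synthesis genes were also above the fresh level under GGTI. Of 26 sterol synthesis genes 23 were higher than in fresh cells and none was lower, with a median of 1.52, against 1.39 in DMSO_48h. Hmgcs1, an early enzyme of the mevalonate pathway, stood at 8.78, 8.92 and 8.63 in GGTI_48h, 8.74, 8.82 and 8.83 in DMSO_48h, and 7.51, 6.65 and 7.06 in DMSO_0h. Both 48 h groups overlapped each other and lay above every fresh array, by 1.71 ± 0.16 in GGTI_48h (adjusted p = 4.78e-08).

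Sqle, which makes squalene epoxide, was 5.69-fold above the fresh level. Fdps, which makes farnesyl diphosphate, the lipid donor for farnesylation, stood at 10.49, 10.67 and 10.64 in GGTI_48h, 10.00, 10.40 and 10.25 in DMSO_48h, and 8.61, 8.77 and 8.62 in DMSO_0h. It lay above fresh cells by 1.93 ± 0.11 and above DMSO_48h by 0.39 ± 0.11 (adjusted p = 0.0168), with no overlap between the 48 h groups. Insig1, which restrains the pathway, had a difference of 0.35 from fresh cells that was not called (adjusted p = 0.082), but was without DMSO_0h replicate 1 (0.52, adjusted p = 0.0159).

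Of 16 fatty acid synthesis genes 9 were higher and 1 lower, and the 1 lower call was lost without DMSO_0h replicate 1 and without GGTI_48h replicate 1 or 2. Fads2, a fatty acid desaturase, stood at 10.04, 10.36 and 10.35 in GGTI_48h, 9.15, 10.20 and 9.21 in DMSO_48h, and 6.14, 5.41 and 6.01 in DMSO_0h. The 48 h groups overlapped through 1 DMSO_48h array, and both were separate from the fresh cells, GGTI_48h by 21.1-fold. Elovl6, a fatty acid elongase, was 14.8-fold higher than in fresh cells and 1.85-fold higher than in DMSO_48h. Of 28 oxidative phosphorylation genes 25 were higher and none lower, with a median of 0.64, against 0.74 in DMSO_48h. These differences were small beside those of cell division, for example 0.61 ± 0.08 for Cycs, which encodes cytochrome c.

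Most ribosome biogenesis genes, 26 of 31, were above the fresh and below the DMSO_48h level. Of the 31 genes 26 were above the fresh level in GGTI_48h and 2 below, with a median of 0.57, while the same genes had a median of 1.48 in DMSO_48h, and 29 of 31 were lower in GGTI_48h than in DMSO_48h by the direct test. Srm, which makes spermidine, stood at 10.32, 10.28 and 10.16 in GGTI_48h, 11.17, 11.33 and 11.29 in DMSO_48h, and 8.31, 8.33 and 8.51 in DMSO_0h. The 3 groups were separate, with GGTI_48h 3.65-fold above fresh cells and 2.02-fold below DMSO_48h. Dkc1, which modifies ribosomal RNA, was 3.67-fold above fresh cells and 2.39-fold below DMSO_48h. Ncl, nucleolin, was near the fresh level in GGTI_48h (0.09, 95% interval -0.11 to 0.29) and higher in DMSO_48h by 0.71. The 2 genes below the fresh level were Nop56 (-0.38) and Gar1 (-0.26), both parts of small nucleolar ribonucleoproteins. Neither was called after centring on all probe sets (adjusted p = 0.0854 and 0.29), and Gar1 lost its call in 7 of 13 alternatives. Without DMSO_0h replicate 2, which is described further on, 23 genes of this list were higher and 1 lower.

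Of 24 glycolysis genes 12 were higher and 2 lower, with a median of 0.28, against 1.05 in DMSO_48h, and 17 were lower than in DMSO_48h by the direct test. Of these genes 9 lay above fresh cells and below DMSO_48h, 10 were not called against fresh cells, and 2 lay below both groups. Hk2, the inducible hexokinase, stood at 8.17, 8.08 and 8.09 in GGTI_48h, 9.50, 9.59 and 9.45 in DMSO_48h, and 6.00, 4.19 and 5.29 in DMSO_0h. The groups did not overlap, the fresh level was at background on average, and the difference was 2.96 ± 0.27. Ldha, lactate dehydrogenase A, was 1.44-fold above fresh cells, and Tpi1, triose phosphate isomerase, 4.95-fold. Eno1, enolase, rose 3.19-fold above fresh cells and had nearly the same mean in both 48 h groups (0.03, 95% interval -0.16 to 0.21).

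Other glucose genes were not above the fresh level. Slc2a1, the glucose transporter GLUT1, was near it (0.09, 95% interval -0.12 to 0.29) and rose by 0.78 in DMSO_48h. Pfkfb3, which activates phosphofructokinase, stood at 6.90, 6.81 and 6.75 in GGTI_48h, 8.13, 8.23 and 7.87 in DMSO_48h, and 7.22, 7.41 and 7.39 in DMSO_0h. The GGTI_48h arrays were below all fresh arrays (-0.52, adjusted p = 0.000312) and the DMSO_48h arrays above them (0.73). The lactate exporter gene Slc16a3 was likewise lower in GGTI_48h (-0.51) and higher in DMSO_48h (1.00).

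Of 14 amino acid transporter genes 3 were higher (21.4%) and 5 lower (35.7%) than in fresh cells, near the shares over all genes (20.8% and 26.4%), with a median of -0.06. Slc7a5, the light chain of the large neutral amino acid transporter, was near the fresh level in GGTI_48h (-0.12, 95% interval -0.35 to 0.12) and rose by 0.88 in DMSO_48h. Its partner Slc3a2 stood at 9.96, 9.96 and 9.93 in GGTI_48h, 10.71, 10.81 and 10.68 in DMSO_48h, and 10.57, 10.53 and 10.50 in DMSO_0h. The GGTI_48h arrays lay below both other groups (-0.58 from fresh cells, adjusted p = 1.19e-05). Of 20 ATF4 stress genes 9 were higher and 6 lower. The 6 became 2 without DMSO_0h replicate 1, and 3 without GGTI_48h replicate 2 and after centring on all probe sets. Phgdh, the first enzyme of serine synthesis, was 5.83-fold and Mthfd2, of mitochondrial folate metabolism, 2.65-fold above fresh cells, while Atf3, a stress-induced transcription factor, was lower (-1.27).

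**Figure D2:**
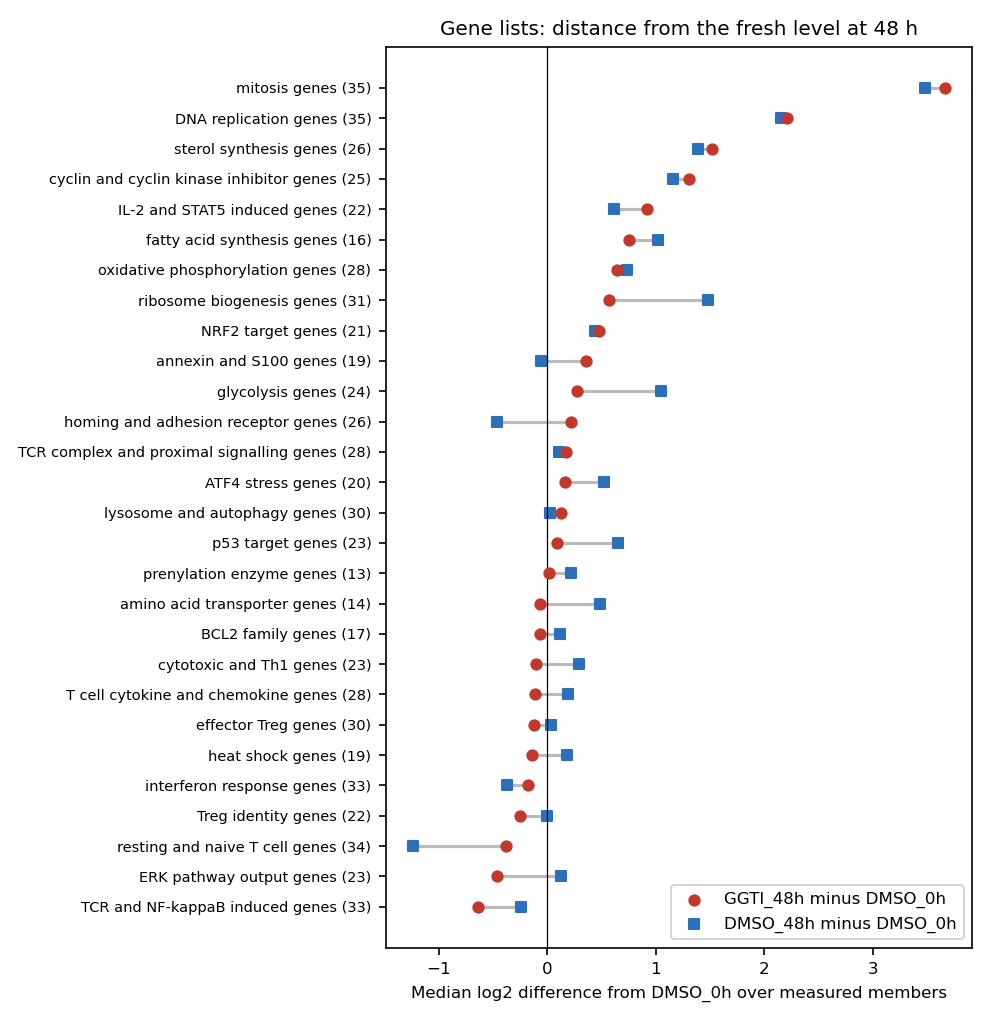
Median log2 difference from DMSO_0h over the measured members of 28 gene lists (number of genes in brackets), in GGTI_48h (circles) and DMSO_48h (squares), which share the DMSO_0h arrays. Mitosis, replication and sterol genes have nearly the same median in both, ribosome biogenesis and glycolysis genes have the lower median in GGTI_48h, and resting and naive T cell genes the higher one.

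Several cytokine and Th1 genes that rose strongly in DMSO_48h were not called above the fresh level under GGTI. Ccl3, an inflammatory chemokine, stood at 5.32, 5.17 and 4.19 in GGTI_48h, 10.53, 10.06 and 10.26 in DMSO_48h, and 4.49, 4.41 and 4.71 in DMSO_0h. GGTI_48h and fresh cells overlapped at background, and their difference of 0.36 (95% interval -0.10 to 0.82) was not called. DMSO_48h was higher than fresh cells by 5.75 ± 0.22. Without GGTI_48h replicate 3, the lowest array, Ccl3 was called higher than in fresh cells (0.71, adjusted p = 0.00292).

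Tbx21, which encodes the Th1 transcription factor T-bet, showed the same order. It stood at 5.44, 5.02 and 4.85 in GGTI_48h, 9.58, 9.40 and 9.32 in DMSO_48h, and 5.45, 4.91 and 5.60 in DMSO_0h. The difference from fresh cells was -0.22 (95% interval -0.78 to 0.35), against 4.11 ± 0.27 in DMSO_48h, and both the GGTI_48h and the fresh level were at background. Ccl4, a related chemokine, differed from fresh cells by 0.11 in GGTI_48h and 4.27 in DMSO_48h, and Irf8, a lymphoid transcription factor, by 0.37 and 3.51. The small difference of Irf8 in GGTI_48h was not called (adjusted p = 0.0536), but was in 6 of 13 alternatives. Ifng, encoding interferon gamma, and Il10, encoding interleukin-10, were at background in GGTI_48h and in fresh cells, with differences of -0.33 and -0.40 that were not called, and rose in DMSO_48h by 2.24 and 1.57. In a fit of only the arrays compared both were called lower in GGTI_48h than in fresh cells (adjusted p = 0.0437 and 0.0289).

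Not all genes of this kind were at the fresh level. Of 28 cytokine and chemokine genes 4 were higher (14.3%) and 8 lower (28.6%), against 20.8% and 26.4% of all genes, and 7 were near the fresh level. The median was -0.11, close to that of all genes, and 0.01 when arrays were centred on all probe sets. The 4 higher genes were Lta, Ltb, Tnf and Csf1. Lta, lymphotoxin alpha, stood at 9.08, 9.18 and 8.93 in GGTI_48h, 8.91, 9.04 and 8.86 in DMSO_48h, and 7.26, 7.40 and 7.34 in DMSO_0h. Its GGTI_48h level overlapped DMSO_48h and was 3.32-fold above fresh cells. Ltb, lymphotoxin beta, exceeded both fresh cells (0.80) and DMSO_48h (0.74). Tnf, tumour necrosis factor, differed from fresh cells by 1.33, or by 0.73 without DMSO_0h replicate 2. The count of 8 lower genes was 4 without DMSO_0h replicate 3, without GGTI_48h replicate 2, and after that centring.

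Of 23 cytotoxic and Th1 genes 6 were higher (26.1%) and 7 lower (30.4%), near the shares over all genes (20.8% and 26.4%), with a median of -0.10. By the direct test 15 were lower than in DMSO_48h (65.2%), against 11.6% of all genes. Nkg7, a protein of cytotoxic granules, stood at 7.34, 6.98 and 7.40 in GGTI_48h, 10.60, 10.71 and 10.82 in DMSO_48h, and 5.76, 6.00 and 5.59 in DMSO_0h. The groups were separate, with GGTI_48h 2.75-fold above fresh cells and 11.1-fold below DMSO_48h. Gzmb, granzyme B, differed from fresh cells, where it was at background, by 2.15 ± 0.25 in GGTI_48h and 3.77 ± 0.25 in DMSO_48h. Il12rb1, an interleukin-12 receptor chain, was 2.36-fold above fresh cells.

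By the rule for genes near the fresh level despite a large difference in DMSO_48h, Prss16, Slc4a11, Serpina3f, Plaur, Ajuba, Hacd1 and Ak4 were at 1.99 to 3.13 above fresh cells in DMSO_48h and between -0.08 and 0.16 in GGTI_48h. Slc4a11, a membrane transporter, stood at 6.24, 6.21 and 5.89 in GGTI_48h, 9.0, 8.88 and 9.13 in DMSO_48h, and 6.16, 6.09 and 6.24 in DMSO_0h. Its GGTI_48h and fresh arrays overlapped. Prss16 was at background in both, Ajuba was at background in fresh cells, and Serpina3f was barely above it there (5.65). For these genes a fall below the fresh level could hardly be seen. The other 3 genes of the rule, Klf2, Rasgrp2 and Cd86, were near the fresh level in GGTI_48h and lower in DMSO_48h.

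Some genes of the resting T cell were close to the fresh level at 48 h. They were a minority, as 7 of the 34 resting and naive genes were near it, against 41.6% of all genes. Klf2 and Rasgrp2 had been picked by the rule above for being near it. Klf2, a transcription factor that maintains quiescence and homing, stood at 8.56, 8.57 and 8.42 in GGTI_48h, 6.12, 6.48 and 6.50 in DMSO_48h, and 8.61, 8.64 and 8.73 in DMSO_0h. The GGTI_48h arrays lay just under the fresh ones, with a difference of -0.14 (95% interval -0.43 to 0.14), against -2.29 ± 0.14 in DMSO_48h. Rasgrp2, which activates Rap GTPases, differed by 0.05 in GGTI_48h and -2.23 in DMSO_48h, and Lef1, a transcription factor of naive T cells, by -0.06 and -0.90. Il7r, the interleukin-7 receptor, stood at 9.84, 9.99 and 9.99 in GGTI_48h, 7.54, 7.25 and 7.45 in DMSO_48h, and 9.58, 9.86 and 9.72 in DMSO_0h. Its GGTI_48h and fresh arrays overlapped, and the interval of the difference, -0.09 to 0.54, passed the upper bound slightly. At 18 h under GGTI (2 arrays) Klf2 stood at 7.94 and 8.23, Rasgrp2 at 8.91 and 8.61, and Il7r at 8.83 and 8.66, each below every fresh array and every GGTI_48h array.

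Other resting genes lay below fresh cells but above DMSO_48h. S1pr1, the receptor that guides exit from lymph nodes, stood at 9.84, 9.73 and 9.54 in GGTI_48h, 7.33, 7.22 and 7.37 in DMSO_48h, and 10.36, 10.76 and 10.59 in DMSO_0h. All 3 groups were separate, at -0.87 ± 0.13 from fresh cells in GGTI_48h (adjusted p = 1.41e-05) and -3.27 ± 0.13 in DMSO_48h. Klf3, a repressor related to Klf2, differed from fresh cells by -0.67 and -4.07, Tcf7, the naive T cell factor TCF1, by -0.86 and -1.59, and the chemokine receptor Cxcr4 by -2.56 and -4.27. Over the list of 34 resting and naive genes, 9 were higher than in fresh cells (26.5%) and 18 lower (52.9%), against 20.8% and 26.4% of all genes. The median of the list was -0.38, against -1.24 in DMSO_48h, and 26 were higher in GGTI_48h than in DMSO_48h. Ccr7, the lymph node homing receptor, did not follow this order, at -1.44 in GGTI_48h and -1.17 in DMSO_48h.

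Some resting genes exceeded the fresh level. Ms4a4b, a tetraspanning protein of naive T cells, stood at 10.35, 10.36 and 10.29 in GGTI_48h, 6.14, 5.61 and 5.76 in DMSO_48h, and 8.61, 8.93 and 8.63 in DMSO_0h. The fresh arrays lay between the 48 h groups, GGTI_48h being higher by 1.61 ± 0.21 (adjusted p = 2.31e-06) and DMSO_48h lower by 2.89. Id3, an inhibitor of E proteins, stood at 9.22, 9.33 and 8.98 in GGTI_48h, 6.51, 6.25 and 6.48 in DMSO_48h, and 7.13, 7.12 and 7.09 in DMSO_0h. It too was above fresh cells in GGTI_48h (4.17-fold) and below them in DMSO_48h (-0.70). Bcl2, which protects from cell death, was 2.40-fold above fresh cells.

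**Figure D3:**
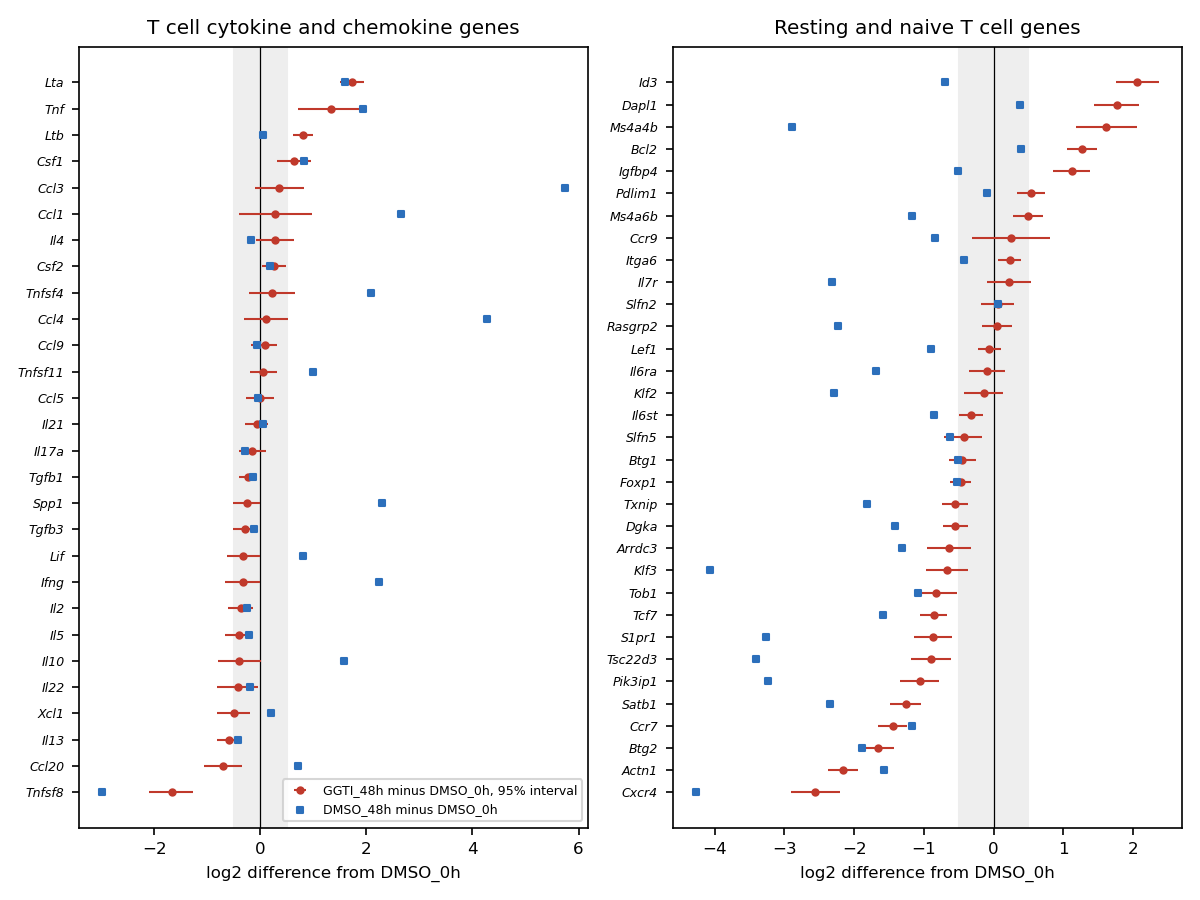
Difference GGTI_48h minus DMSO_0h with its 95% interval (circles and bars) and DMSO_48h minus DMSO_0h (squares), both log2 and sharing the DMSO_0h arrays, for 28 cytokine and chemokine genes (left) and 33 of the 34 resting and naive T cell genes (right). The shaded band is -0.5 to 0.5. Ccl3 and Ccl4 on the left and Klf2 and Rasgrp2 on the right have GGTI_48h values near 0 and DMSO_48h values far from it.

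Of 26 homing and adhesion receptor genes 12 were higher (46.2%) and 8 lower (30.8%), against 20.8% and 26.4% of all genes, with a median of 0.22. Ccr4, a receptor for skin-homing chemokines, stood at 8.85, 8.77 and 8.83 in GGTI_48h, 7.93, 7.76 and 7.55 in DMSO_48h, and 5.70, 4.85 and 4.83 in DMSO_0h. GGTI_48h was the highest group, 3.69 ± 0.17 above fresh cells, which were at background, and 2.10-fold above DMSO_48h. Itgb1, the beta 1 integrin chain, was 2.87-fold above fresh cells and 1.82-fold above DMSO_48h. Cd44, one of the sort markers, an adhesion receptor that rises on activation, was 2.21-fold above fresh cells but below DMSO_48h (-0.97).

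Many early response genes lay under the fresh level, which for several of them was itself high. Mean levels in DMSO_0h were 10.46 for Nr4a1, 10.49 for Egr2 and 9.82 for Fosb, against 5.64 for the negative controls. The fresh cells are therefore not a baseline without expression of these genes, and the cause was not tested. In DMSO_48h 16 of the 33 TCR and NF-kappaB induced genes were also lower than in fresh cells, and 8 were higher. Nr4a2, an orphan nuclear receptor induced by T cell receptor signals, stood at 6.37, 6.30 and 6.56 in GGTI_48h, 9.21, 9.19 and 8.98 in DMSO_48h, and 10.81, 9.12 and 10.74 in DMSO_0h. GGTI_48h lay below every array of both other groups, with a difference of -3.81 ± 0.28 from fresh cells (adjusted p = 1.2e-09) and -2.71 ± 0.28 from DMSO_48h. Nr4a1, its relative, stood at 7.88, 8.01 and 7.71 in GGTI_48h, 9.64, 9.47 and 9.46 in DMSO_48h, and 11.09, 9.41 and 10.87 in DMSO_0h. It had the same order, with a difference of -2.59 ± 0.26 from fresh cells.

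DMSO_0h replicate 2 read lower than the other fresh arrays in both genes. Over the list of TCR and NF-kappaB induced genes the mean level was 8.92 on that array and 9.64 and 9.52 on the other fresh arrays, and over the ERK pathway output genes it was 7.66, against 8.39 and 8.30. Its part in the results was not tested beyond leaving it out: without it Nr4a2 and Nr4a1 differed from fresh cells by -4.36 and -3.11. The SD of these genes was 0.955 and 0.916 in DMSO_0h, against 0.139 and 0.151 in GGTI_48h. The SEs use a spread pooled over all groups, so for such genes they do not carry the wider spread of the fresh arrays in full.

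Of 33 TCR and NF-kappaB induced genes 21 were lower than in fresh cells and 6 higher, with a median of -0.64, against -0.24 in DMSO_48h, and 10 lay below both. Without DMSO_0h replicate 2 the counts were the same and the median was -0.74. Egr2, an early growth response factor, stood at 8.41, 8.15 and 8.21 in GGTI_48h, 10.68, 10.38 and 10.51 in DMSO_48h, and 11.16, 9.37 and 10.94 in DMSO_0h. The DMSO_48h arrays overlapped the fresh ones and the GGTI_48h arrays lay below both. Tnfaip3, the NF-kappaB inhibitor A20, was 6.97-fold lower than in fresh cells, and Rel, an NF-kappaB subunit, was lower by similar amounts in GGTI_48h (-0.81) and DMSO_48h (-0.82).

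The 6 higher genes of this list were Batf, Irf4, Myc, Bcl2l1, Tnfrsf9 and Bcl3, of which Bcl3 lost its call in 5 alternatives. Batf, a factor of effector T cells, stood at 10.59, 10.68 and 10.73 in GGTI_48h, 9.88, 9.86 and 9.83 in DMSO_48h, and 8.23, 8.27 and 8.41 in DMSO_0h. It was highest in GGTI_48h, 5.14-fold above fresh cells. Irf4, a factor of effector Treg cells, stood at 9.08, 9.03 and 9.11 in GGTI_48h, 10.20, 10.15 and 10.10 in DMSO_48h, and 8.52, 6.67 and 8.36 in DMSO_0h. It lay above fresh cells (1.22 ± 0.28) and below DMSO_48h (-1.08). Myc, the growth regulator, was above fresh cells by 1.19 ± 0.25 and differed from DMSO_48h by 0.03 (95% interval -0.49 to 0.56). Both sizes depend on DMSO_0h replicate 2, without which Irf4 differed by 0.64 and Myc by 0.67.

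Of 23 ERK pathway output genes 12 were lower and 3 higher, with a median of -0.47, against 0.13 in DMSO_48h, and 15 were lower and 2 higher without DMSO_0h replicate 2. Fosl2, a subunit of the transcription factor AP-1, stood at 5.82, 6.22 and 5.99 in GGTI_48h, 7.38, 7.19 and 7.30 in DMSO_48h, and 10.08, 9.43 and 10.38 in DMSO_0h. The groups were separate, and GGTI_48h was lowest (-3.95 ± 0.18). Fosb, another AP-1 subunit, was lower than in fresh cells by similar amounts in GGTI_48h (-3.63) and DMSO_48h (-3.45). Egr1 differed from fresh cells by -1.72 in GGTI_48h and 0.13 in DMSO_48h, and Dusp2, a MAP kinase phosphatase, by -0.75 and 0.31.

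Other large falls lay outside these lists. Rgs2, a regulator of G protein signalling, stood at 5.31, 5.31 and 4.94 in GGTI_48h, 6.43, 6.76 and 6.35 in DMSO_48h, and 10.05, 9.66 and 10.18 in DMSO_0h. The groups were separate and GGTI_48h was at background, -4.78 ± 0.15 from fresh cells. Ramp3, a receptor accessory protein, and Vps37b, of the endosomal sorting machinery, differed from fresh cells by -4.36 and -3.13 in GGTI_48h, and by -4.30 and -3.58 in DMSO_48h. Pou6f1, Rflnb, Pak1 and Plagl1 were lower by 2.64 to 3.41 on the log2 scale.

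Receptors of activated Treg cells were among the genes below both groups. Pdcd1, the inhibitory receptor PD-1, stood at 7.40, 7.25 and 7.0 in GGTI_48h, 9.60, 9.33 and 9.58 in DMSO_48h, and 9.99, 9.67 and 10.00 in DMSO_0h. GGTI_48h lay 6.36-fold below fresh cells and 4.88-fold below DMSO_48h, with no overlap. Tigit, another inhibitory receptor, stood at 7.09, 6.48 and 6.99 in GGTI_48h, 9.12, 9.19 and 9.39 in DMSO_48h, and 7.94, 7.52 and 7.91 in DMSO_0h. It was below fresh cells in GGTI_48h (-0.93 ± 0.15, adjusted p = 2.88e-05) and above them in DMSO_48h (1.44 ± 0.15). Ccr8, a chemokine receptor of effector Treg cells, differed from fresh cells by -1.19 and 2.33 in the same way. Rgs16, Penk, Crem and Nr4a3 also lay below both groups, by 1.58 to 2.39 from fresh cells.

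Of 30 effector Treg genes 11 were higher (36.7%) and 13 lower (43.3%) than in fresh cells, against 20.8% and 26.4% of all genes. Icos, a costimulatory receptor, stood at 10.10, 9.91 and 10.01 in GGTI_48h, 10.11, 9.99 and 10.05 in DMSO_48h, and 9.28, 8.85 and 9.39 in DMSO_0h. Both 48 h groups overlapped and lay above the fresh arrays, GGTI_48h by 1.78-fold. Ctla4, the inhibitory receptor that competes for CD28 ligands, was at 10.22 to 10.26 in GGTI_48h, 10.65 to 10.80 in DMSO_48h and 10.53 to 10.78 in DMSO_0h. It was lower than in fresh cells by a small step (-0.45 ± 0.11, adjusted p = 0.0016). Prdm1, encoding Blimp-1, was higher by 2.27 ± 0.21 from a fresh level at background.

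Among genes above both groups, ranked by the smaller of the 2 differences, S100a6, a calcium-binding protein, came first. It stood at 9.65, 9.64 and 9.44 in GGTI_48h, 5.79, 5.64 and 6.03 in DMSO_48h, and 5.24, 5.63 and 5.42 in DMSO_0h. DMSO_48h and fresh cells lay close together, and GGTI_48h stood above fresh cells by 4.15 ± 0.20, from a level at background (adjusted p = 1.93e-12), and above DMSO_48h by 3.76 ± 0.20. Anxa2, an annexin that forms a complex with S100a10, stood at 9.65, 9.84 and 9.51 in GGTI_48h, 7.24, 7.14 and 7.29 in DMSO_48h, and 6.31, 6.39 and 6.10 in DMSO_0h. Its groups were separate, with GGTI_48h 10.5-fold above fresh cells. Of 19 annexin and S100 genes 10 were higher than in fresh cells and none lower, 9 were higher than in DMSO_48h by the direct test, 7 were higher than in both, and 7 of the 9 not called against fresh cells were near the fresh level. Without DMSO_0h replicate 1 or GGTI_48h replicate 2, and with array weights, 1 was called lower. S100a10 was 3.19-fold above fresh cells.

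Aqp3, a channel for water and glycerol, stood at 10.56, 10.56 and 10.28 in GGTI_48h, 6.50, 6.64 and 6.86 in DMSO_48h, and 7.18, 7.23 and 6.99 in DMSO_0h. It was 10.1-fold above fresh cells in GGTI_48h and lower than in fresh cells in DMSO_48h (-0.47). Car5b, a mitochondrial carbonic anhydrase, was 28.3-fold above fresh cells and 9.78-fold above DMSO_48h. Cacna1c, a subunit of a voltage-gated calcium channel, stood at 8.96, 9.04 and 9.14 in GGTI_48h, 5.81, 5.88 and 5.95 in DMSO_48h, and 5.90, 6.01 and 5.80 in DMSO_0h. The DMSO_48h and fresh arrays overlapped, and GGTI_48h was 8.83-fold above fresh cells. Myo6, an actin motor, Hepacam2, Tcea3 and Ms4a6d completed the leading genes, at 2.67 to 4.96 above the fresh level, and fresh cells were at background for the last 3.

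The interferon-inducible membrane proteins Ifitm1, Ifitm2 and Ifitm3 were also above both. Ifitm3 stood at 9.61, 9.72 and 9.67 in GGTI_48h, 6.96, 6.86 and 6.84 in DMSO_48h, and 6.55, 6.59 and 6.67 in DMSO_0h. It was 8.37-fold above fresh cells, and Ifitm1 and Ifitm2 were 6.63-fold and 8.45-fold above them. Over the list of 33 interferon response genes 10 were higher than in fresh cells (30.3%) and 11 lower (33.3%), against 20.8% and 26.4% of all genes, with a median of -0.18, and 8 lay above both groups. With dim probe sets left out 22 of these genes were tested, 10 higher and 6 lower. Their median was then 0.39, so its sign depends on the dim genes. Irf7, a regulator of that response, was at 4.92, 5.68 and 4.93 in GGTI_48h, 4.32, 4.59 and 4.16 in DMSO_48h, and 6.91, 7.29 and 6.50 in DMSO_0h. It lay below fresh cells in both 48 h groups, at background in each. Isg15, a ubiquitin-like protein, was also lower (-0.92).

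**Figure D4:**
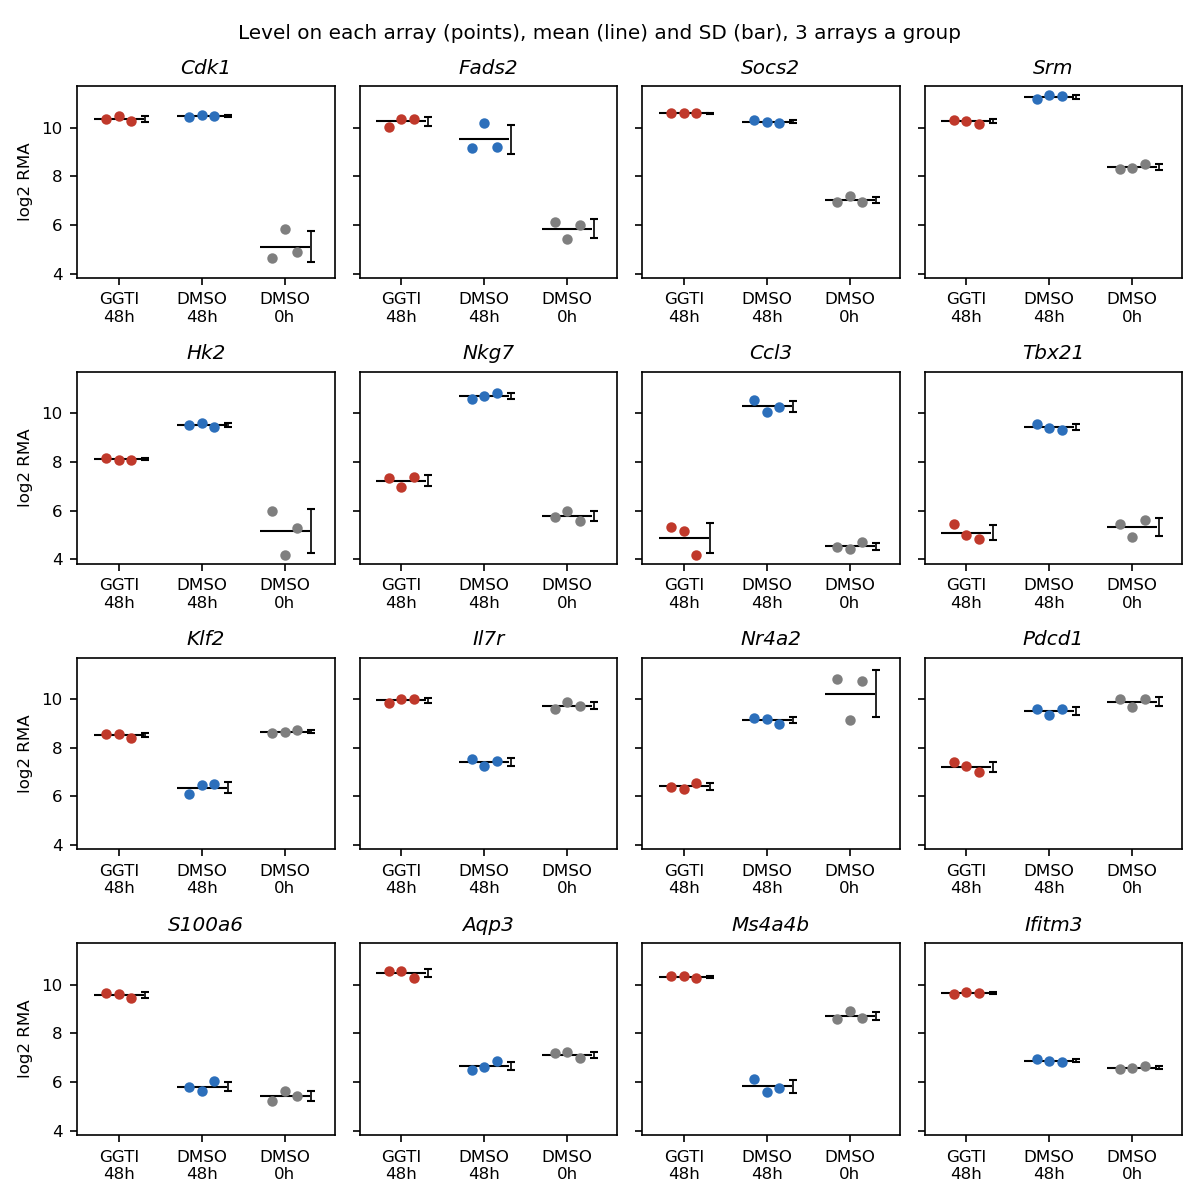
Level on each array (log2 RMA, points) with the mean (line) and SD (bar) of 3 arrays a group, for 16 genes, with GGTI_48h left, DMSO_48h in the middle and DMSO_0h right. Cdk1 and Socs2 are high in both 48 h groups, Ccl3 and Tbx21 are high in DMSO_48h alone among these groups, Nr4a2 and Pdcd1 are lowest in GGTI_48h, and S100a6, Aqp3, Ms4a4b and Ifitm3 are highest there.

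Genes induced by interleukin-2 through STAT5 were mostly above the fresh level, 17 of 22 higher and 1 lower, with a median of 0.92, against 0.62 in DMSO_48h. Socs2, a feedback inhibitor of cytokine signalling, stood at 10.58, 10.58 and 10.60 in GGTI_48h, 10.29, 10.23 and 10.18 in DMSO_48h, and 6.95, 7.17 and 6.95 in DMSO_0h. It was 11.8-fold above fresh cells and slightly above DMSO_48h (0.36 ± 0.08, adjusted p = 0.00261). Il2ra was higher than in fresh cells by 2.62 ± 0.10 and higher than in DMSO_48h by 0.30 ± 0.10. The 1 lower gene was Xcl1, a chemokine. Without DMSO_0h replicate 2 the counts were 16 higher and 3 lower.

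Of 22 Treg identity genes 6 were higher and 11 lower, with a median of -0.25. Gpr83, a receptor marking Treg cells, stood at 11.48, 11.46 and 11.48 in GGTI_48h, 11.16, 11.12 and 11.21 in DMSO_48h, and 8.27, 7.78 and 8.16 in DMSO_0h. It was highest in GGTI_48h, 10.6-fold above fresh cells. Ikzf2, encoding Helios, was at 9.59, 9.71 and 9.88 in GGTI_48h, 9.26, 9.15 and 9.17 in DMSO_48h, and 10.24, 10.00 and 10.02 in DMSO_0h. The 3 groups were separate, and the difference from fresh cells was -0.36 ± 0.09 in GGTI_48h and -0.90 ± 0.09 in DMSO_48h. Ikzf4, encoding Eos, followed the same order (-0.51 and -0.96).

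Among 28 genes of the T cell receptor complex and its proximal signalling 14 were higher and 7 lower. Trat1, an adaptor associated with the receptor, stood at 10.36, 10.33 and 10.55 in GGTI_48h, 7.79, 8.16 and 7.94 in DMSO_48h, and 7.71, 7.50 and 7.69 in DMSO_0h. GGTI_48h was 6.89-fold above fresh cells, with no overlap. Sit1, another adaptor, was 3.42-fold higher, while Ptpn22 and Cblb, negative regulators of receptor signalling, were lower in GGTI_48h (-1.60 and -1.24) and in DMSO_48h (-1.57 and -1.09). Cd3e was higher by 0.32 in both 48 h groups.

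Among single small GTPase genes, Rhoq was 2.35-fold above the fresh level. Rhob, a GTPase that can carry either lipid, stood at 9.44, 9.46 and 9.19 in GGTI_48h, 6.33, 6.50 and 6.18 in DMSO_48h, and 9.18, 8.77 and 8.96 in DMSO_0h. It lay just above fresh cells in GGTI_48h (0.40 ± 0.14, adjusted p = 0.0259), a call that was lost without DMSO_0h replicate 2 or 3 and without GGTI_48h replicate 1 or 2 (adjusted p up to 0.118), and 6.19-fold below them in DMSO_48h. Rhoa differed from fresh cells by 0.12 and Cdc42 by 0.16, neither called, although both were after centring on all probe sets, and Rac2, the Rac of blood cells, was higher by 0.61.

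Of 13 genes for prenylation enzymes and their partners 6 were higher (46.2%), with Fdps the largest, and 2 lower (15.4%), against 20.8% and 26.4% of all genes. Only 3 were higher without DMSO_0h replicate 1. Pggt1b, the catalytic subunit of geranylgeranyl transferase type I, stood at 6.70, 7.21 and 7.16 in GGTI_48h, 7.23, 7.47 and 7.30 in DMSO_48h, and 7.05, 7.23 and 6.94 in DMSO_0h. The groups overlapped, and its difference from fresh cells was -0.05 (95% interval -0.31 to 0.20). Fnta, the subunit shared with farnesyl transferase, differed by -0.09, and Fntb, the farnesyl transferase beta subunit, was higher by 0.53 (adjusted p = 0.0101), a call that was lost without DMSO_0h replicate 1 or 3 (adjusted p up to 0.0681). Ggps1, which makes geranylgeranyl diphosphate, was lower by similar amounts in GGTI_48h (-0.49) and DMSO_48h (-0.39).

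Tagln2, an actin-binding protein, was 4.93-fold higher and Actn1, alpha-actinin, 4.48-fold lower. The remaining lists were mixed. P53 target genes had 10 of 23 higher and 3 lower, with a median of 0.09, against 0.65 in DMSO_48h. BCL2 family genes had 7 of 17 higher (41.2%) and 5 lower (29.4%). Among the higher was Pmaip1, a promoter of cell death, which stood 2.75-fold above fresh cells and 2.53-fold above DMSO_48h. NRF2 target genes had 13 of 21 higher (61.9%) and 4 lower (19.0%), and lysosome and autophagy genes 11 of 30 (36.7%) and 6 (20.0%). Heat shock genes had 5 of 19 higher (26.3%) and 6 lower (31.6%), near the shares over all genes. The 6 lower heat shock genes became 3 without DMSO_0h replicate 3 and after centring on all probe sets. The lower BCL2 family genes became 3 without GGTI_48h replicate 1 and after that centring, and the lower p53 target genes 5 without DMSO_0h replicate 2.

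Markers of other cells moved as follows, and their part in the results was not tested. Of 14 myeloid and dendritic cell genes 10 were lower (71.4%) and 2 higher (14.3%) in GGTI_48h. Their mean level was 5.26 to 5.36 in GGTI_48h, 5.31 to 5.34 in DMSO_48h and 5.60 to 5.75 in DMSO_0h. The average negative-control levels of these groups lay close by, at 5.28, 5.18 and 5.64. B cell genes had 4 of 9 lower (44.4%) and 1 higher (11.1%). CD8 T and NK cell genes had 1 of 11 lower (9.09%) and 2 higher (18.2%). Stromal and endothelial genes had 3 of 11 lower (27.3%) and 1 higher (9.09%). Over all genes 26.4% were lower and 20.8% higher. With dim probe sets left out only 3 of the 14 myeloid genes were tested, 2 of them lower and 1 higher. The 3 lower stromal genes became 0 without DMSO_0h replicate 3, without GGTI_48h replicate 2 and after centring, and 1 without DMSO_0h replicate 1 or GGTI_48h replicate 3 and when only the arrays compared were fitted. The 1 higher B cell gene lost its call when any 1 of the 6 arrays other than DMSO_0h replicate 2 was left out, and the CD8 T and NK cell counts moved by 1 gene without DMSO_0h replicate 1 or 2 or GGTI_48h replicate 3. Of 8 red cell genes the alpha globins Hba-a1 and Hba-a2 were higher in GGTI_48h than in fresh cells, by 1.00 and 1.09, and the beta globins Hbb-bs and Hbb-bt lower, by 1.83 and 1.61. The beta globin calls were lost without DMSO_0h replicate 1 and without GGTI_48h replicate 2 (adjusted p up to 0.0634). Near-identical copies such as these globins may share probes.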

How the data were processed

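RNA from sorted mouse Treg cells was amplified (NuGEN WTA Pico v2) and read on 1 array a sample, per the labels' protocols. The authors deposited log2 values made by RMA in Affymetrix Expression Console 1.1, per the submitters' processing notes, so arrays have no read depth and their number limits the precision. Of 28846 probe sets, 22202 carried 1 gene symbol, and the probe set with the highest mean was kept for each of 21928 symbols (180 had several). Group means of all 20 arrays in 7 groups were fitted with limma 3.58.1 in R 4.3.3 (13 residual degrees of freedom) with moderated tests and Benjamini-Hochberg adjustment at 0.05, after the procedure was tested on simulated data. Named genes were the 12 largest rises and 12 largest falls without overlap of arrays, the 10 furthest above both groups, below both, and near the fresh level, members of each list, and a fixed set; some of these genes, and some lists, are not reported here. The members, lists and rules were chosen with earlier results of these data known. Promoters came from RefSeq. Alternatives changed the filter, the arrays fitted, centring, variance model, array weights, the probe set and each array in turn.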

Additional observations from a re-analysis of the deposited data

How the results depend on the processing

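Of the 160 genes named, 143 kept their side of the threshold under every alternative run and none of the 160 reversed a call. There were 13 alternatives for 159 genes and 12 for Lyz2, which is left out with the dim probe sets. The number of genes called between GGTI_48h and DMSO_0h was 8761 to 10327 when single arrays were left out, and the median of the late-rising genes 2.02 to 2.12. Genes called lower numbered 3318 after centring on all probe sets. Genes near the fresh level numbered 4221 with dim probe sets left out, 759 with a band of 0.25 and 18787 with a band of 1, where the alternatives by construction test fewer genes or change the band. Genes called between DMSO_48h and DMSO_18h, from which late genes were chosen, numbered 1801 to 3485 with single arrays left out, lowest without DMSO_48h replicate 2 (1801) and without DMSO_18h replicate 1 (2124). The median of the late-falling genes was -0.735 with dim probe sets left out and with the most variable probe set, -0.544 and -0.496 after centring on all and on gene probe sets, -0.426 with array weights, and -0.824 to -0.368 with single arrays left out; the cause was not tested. Ribosome biogenesis genes called lower numbered 1 without DMSO_0h replicate 2, an alternative chosen after seeing the data. No paired analysis was possible because the labels give no replicate numbers. The replicate numbers used here follow the order of the samples in the series and do not link arrays across groups. With 3 arrays a group, and 9006 genes at background in fresh cells (41.1%), small differences and those of dim genes are limited.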
